A study of Mus musculus with 6 samples.

Results

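The genes described here are 40 genes of the lysosome, of the 34745 genes in the table: 12 lysosomal proteases, 9 glycosidases, 7 lipid enzymes, activators and carriers, 6 membrane proteins, 4 sulfatases, the granulin precursor Grn, and the transcription factor Tfeb. They were taken by name, and the list was drawn up with earlier results of these data known. All 40 were listed and all 40 reached the mean of 1 FPKM (fragments per kilobase of transcript, scaled to the fragments mapped in the library) over the libraries that was needed for testing.

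The lysosome is the acid compartment in which cells break down proteins, glycans, sulfated polysaccharides and lipids that arrive by endocytosis, phagocytosis or autophagy. Its soluble hydrolases are made in the endoplasmic reticulum, tagged with mannose-6-phosphate in the Golgi and carried to the lysosome by mannose-6-phosphate receptors, while a proton pump, the V-ATPase, keeps the lumen acid. TFEB and its relatives bind an E-box-containing element in the promoters of many of these genes and switch them on together. Most lysosomal hydrolases are made by nearly every cell type. Cathepsin S is an exception, being made mainly by macrophages, dendritic cells and other antigen-presenting cells.

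RNA-seq was carried out on lung mesenchymal stromal cells (LMSCs) from MMTV-PyMT mice, in which the polyoma middle T oncogene is driven by a mammary promoter and mammary tumors arise and spread to the lung. Cells came from mice of 6 to 7 weeks (the adenoma stage, A-LMSCs, labelled E-LMSCs), 9 to 10 weeks (the pre-metastatic stage, PM-LMSCs, labelled L-LMSCs) and 13 to 14 weeks (the metastatic stage, M-LMSCs), with 2 libraries at each stage. These ages are those of the labels, and the methods of the study give somewhat older mice for the first 2 stages. All the mice carried the transgene, so no tumor-free group was compared, and age and tumor stage cannot be told apart. The cells had been grown from digested lung as adherent cells, depleted of CD45+ cells with microbeads and cultured to passage 3, and the values therefore describe cultures and not lung tissue.

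The lysosomal genes were distributed over 17 chromosomes. The E-box core CACGTG, the center of the element that TFEB recognizes, was searched in windows of 300 bases (250 before to 50 after the start) in the RefSeq promoters of GRCm38.p6. A promoter was in the table for 35 of the 40 genes, and 12 of those 35 (34.3%) held the core, against 8.09% of the 27025 genes with a promoter in the table. These 12 were Arsa, Ctsa, Ctsd, Ctsf, Ctsl, Gaa, Gla, Glb1, Lamp1, Lgmn, Mcoln1 and Naglu. The core with a T before and an A after it, TCACGTGA, was found in Ctsa, Ctsd, Gla and Mcoln1 (11.4%, against 1.12% of all genes). The longer form GTCACGTGAC was in none of the 35 and in 0.37% of all genes. Each of the 3 motifs reads the same on both strands, and each longer one contains the shorter ones. A match is a description of the letters and does not show binding, and a window without one says nothing about the factor.

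The stretches upstream of the start of 5 genes are shown. Lamp1 and Mcoln1 were taken as abundant and scarce membrane proteins with the core, and Ctss and Lipa as the genes with the largest stage differences. Ctsk was taken as the close neighbor of Ctss. Capitals mark the core. The bases run 5′ to 3′ on the strand of the gene. Each stretch begins where the searched window begins and ends before the first base of the gene in RefSeq or GENCODE, whichever lies further upstream, so that it can be shorter than the window.
Lamp1, chr8:13158911-13159160, plus strand: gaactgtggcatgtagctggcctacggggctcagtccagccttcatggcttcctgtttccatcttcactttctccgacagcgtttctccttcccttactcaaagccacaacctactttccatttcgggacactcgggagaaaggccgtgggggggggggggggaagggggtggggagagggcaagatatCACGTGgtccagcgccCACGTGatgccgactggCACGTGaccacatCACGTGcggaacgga
Mcoln1, chr8:3500269-3500456, plus strand: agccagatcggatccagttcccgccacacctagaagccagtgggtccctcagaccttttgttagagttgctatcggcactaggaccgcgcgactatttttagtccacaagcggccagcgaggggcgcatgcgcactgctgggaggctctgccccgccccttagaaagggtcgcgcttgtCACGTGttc
Ctss, chr3:95526536-95526785, plus strand: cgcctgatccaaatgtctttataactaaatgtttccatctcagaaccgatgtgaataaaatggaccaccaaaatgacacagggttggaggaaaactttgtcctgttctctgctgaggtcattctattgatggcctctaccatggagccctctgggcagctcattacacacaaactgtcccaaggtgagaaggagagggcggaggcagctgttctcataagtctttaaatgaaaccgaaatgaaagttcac
Ctsk, chr3:95498960-95499209, plus strand: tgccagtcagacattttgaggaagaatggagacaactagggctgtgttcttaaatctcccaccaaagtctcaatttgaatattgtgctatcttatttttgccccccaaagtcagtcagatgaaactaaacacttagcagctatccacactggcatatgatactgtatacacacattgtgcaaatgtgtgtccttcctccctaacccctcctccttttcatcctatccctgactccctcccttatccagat
Lipa, chr19:34527475-34527724, minus strand: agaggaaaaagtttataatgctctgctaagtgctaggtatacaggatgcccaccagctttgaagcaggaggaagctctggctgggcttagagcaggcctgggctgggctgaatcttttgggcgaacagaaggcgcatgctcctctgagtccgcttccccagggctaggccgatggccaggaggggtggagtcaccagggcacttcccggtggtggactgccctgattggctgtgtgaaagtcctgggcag
Lamp1 held the core 4 times, at 61, 45, 28 and 15 bases before its start. The window of Mcoln1 held it 2 times, and the stretch shown holds the first of them. The other one, which carries the T before and the A after it, lies past the end of that stretch. None was present in the windows of Ctss, Ctsk and Lipa. Ctsk (chr3:95499256-95509362) and Ctss (chr3:95526786-95556403) lie next to each other on the plus strand of the same chromosome, and Lipa lies at chr19:34492318-34527474 on the minus strand.

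Levels were set out first, because they span a wide range. Summed FPKM ranged from 258249 to 271408 among the libraries, and the 10 genes at the top of each library, none of them a gene of the list, held 9.45% to 10.29% of it. Cd63, a tetraspanin of late endosomes and lysosomes, was the most abundant with a mean of 904 FPKM, followed by the lysosome-associated membrane protein gene Lamp1 (707 FPKM) and the aspartic protease gene Ctsd (499 FPKM). These 3 made up 46.8% of the summed FPKM of the 40 genes, and the 10 most abundant made up 84.0%. At the other end were Tfeb (1.39 FPKM), the iduronidase gene Idua (1.44 FPKM) and Ctsh (1.68 FPKM). A mean of at least 10 FPKM was reached by 31 of the 40, which are called broadly expressed here. The term refers to level in these cultures and not to breadth over cell types. Ctss was among the 9 below that mean with 6.32 FPKM.

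By class, the 12 proteases took 37.0% of the summed FPKM of the list and the 6 membrane proteins 37.2%. The 7 lipid genes took 15.0%, the 9 glycosidases 7.76% and the 4 sulfatases 0.954%. Median levels per gene ran from 63.1 FPKM in the proteases to 10.7 FPKM in the sulfatases. Sulfatases, which remove sulfate groups from glycosaminoglycans and sulfolipids, thus stood lowest of the enzyme classes, all 4 lying between 9.19 and 12.4 FPKM.

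**Figure D1:**
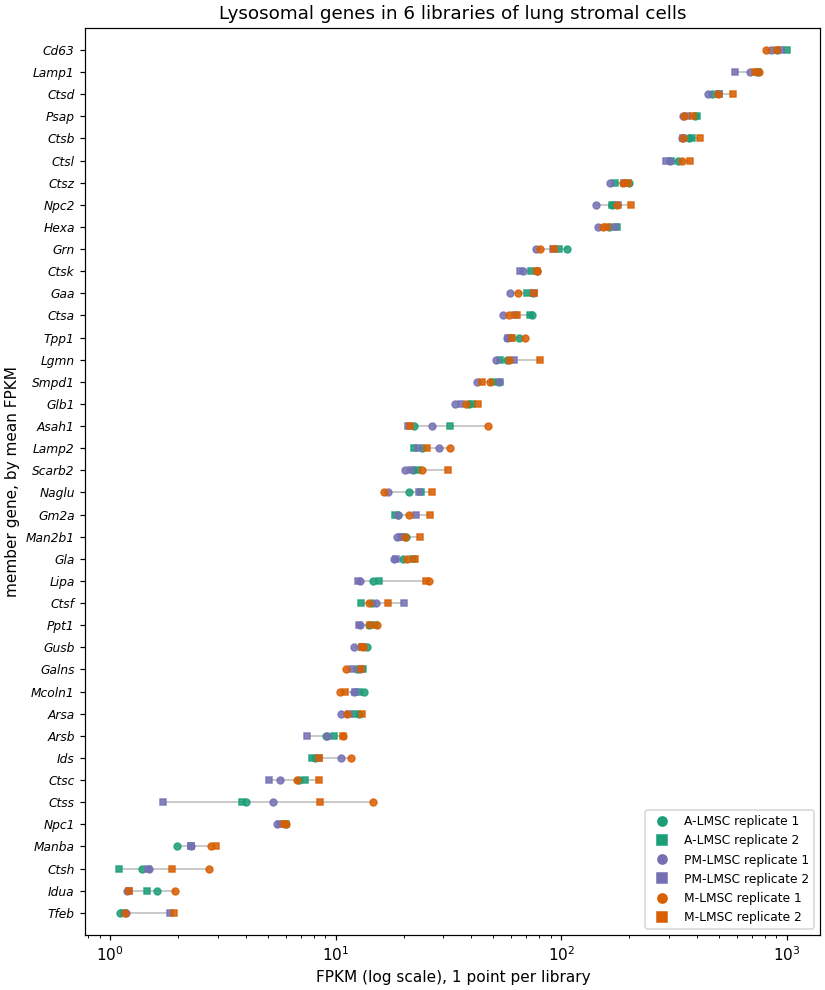
FPKM of each of the 40 lysosomal genes on a log axis, 1 point per library, colored by stage and shaped by replicate number, with a grey line from the lowest to the highest library. Cd63, Lamp1 and Ctsd lie at the top, most rows are short, and the row of Ctss spans 8.51-fold.

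The levels of most genes of the list changed little from library to library. The highest library exceeded the lowest by a median of 1.29-fold over the 40 genes, and by 1.28-fold over the 31 broadly expressed ones. Among the 3885 tested genes of at least 10 FPKM this median was 1.35-fold. The steadiest was Npc1, the cholesterol transporter of the lysosomal membrane, at 1.10-fold (5.97 and 6.01 FPKM in A-LMSCs, 5.48 and 5.67 in PM-LMSCs, 5.99 and 5.91 in M-LMSCs). A spread of 2-fold or more was found in 4 of the 40 (10%), against 12.5% of all tested genes. These 4 were Ctss (8.51-fold), Ctsh (2.52-fold), the acid ceramidase gene Asah1 (2.27-fold) and Lipa (2.07-fold). At like level the shares were close, 6.45% of the 31 broadly expressed genes against 6.02% of the tested genes of at least 10 FPKM.

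Whether lysosomal genes differ between the tumor stages was asked with limma on log2(FPKM + 1), with p-values adjusted over all 10279 tested genes. Without a term for the replicate number, none of the 40 genes passed an adjusted p of 0.05 in any comparison. This was so for PM-LMSCs against A-LMSCs (0.0389% of all tested genes passed), for M-LMSCs against A-LMSCs (0.0681%), for M-LMSCs against PM-LMSCs (0.0292%) and for both later stages together against A-LMSCs (0.126%). At an unadjusted p under 0.05, PM-LMSCs against A-LMSCs gave 0 higher (3.92% of all tested genes) and 2 lower (2.61%), and M-LMSCs against A-LMSCs gave 4 higher (7.68%) and 1 lower (6.96%). M-LMSCs against PM-LMSCs gave 6 higher (4.48%) and 0 lower (4.46%). Both later stages against A-LMSCs gave 2 higher (6.43%) and 1 lower (4.79%).

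With the replicate number as a block, 2 of the 40 passed in M-LMSCs against A-LMSCs, where 3.92% of all tested genes did, and these were Ctss and Lipa. Lipa alone passed in M-LMSCs against PM-LMSCs (0.418% of all tested genes). None passed in PM-LMSCs against A-LMSCs (0.292%) or in both later stages against A-LMSCs (2.05%) with the block. At an unadjusted p under 0.05, 0 of the 40 were higher (9.17% of all tested genes) and 2 lower (4.59%) in the first of these, and 4 were higher (12.9%) and 2 lower (7.84%) in the second. The labels give nothing but the numbers 1 and 2 for the libraries of a stage. The pairing was inferred from the same values that were tested, so a pass with the block rests on that assumption. P-values without the block measure the spread of these libraries around their stage means. Those with it measure the spread left after the shift between the numbers is taken out. Over the 40 genes alone, same-numbered libraries did not deviate together in A- and PM-LMSCs (correlation -0.147) or in A- and M-LMSCs (-0.17). The block therefore has little ground in these genes for comparisons with A-LMSCs.

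The 95% intervals show how large a change the data leave room for. On the scale of FPKM + 1, the interval lay within 2-fold either way for 38 of the 40 in M-LMSCs against A-LMSCs. The other 2 were Ctss and Asah1. In PM-LMSCs against A-LMSCs the same 38 were within 2-fold, and in M-LMSCs against PM-LMSCs 37 were, with Lipa also outside. For the scarcest genes an interval within 2-fold on this scale can reach beyond 2-fold in FPKM. The median half-width of the 40 intervals was 0.31 on the log2 scale. Absolute log2 fold changes were under 0.5 for 30 of the 31 broadly expressed genes in M-LMSCs against A-LMSCs, Lipa being the exception. The share of all tested genes of at least 10 FPKM under 0.5 in that comparison was 94.0%, so small changes were common at this level.

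**Figure D2:**
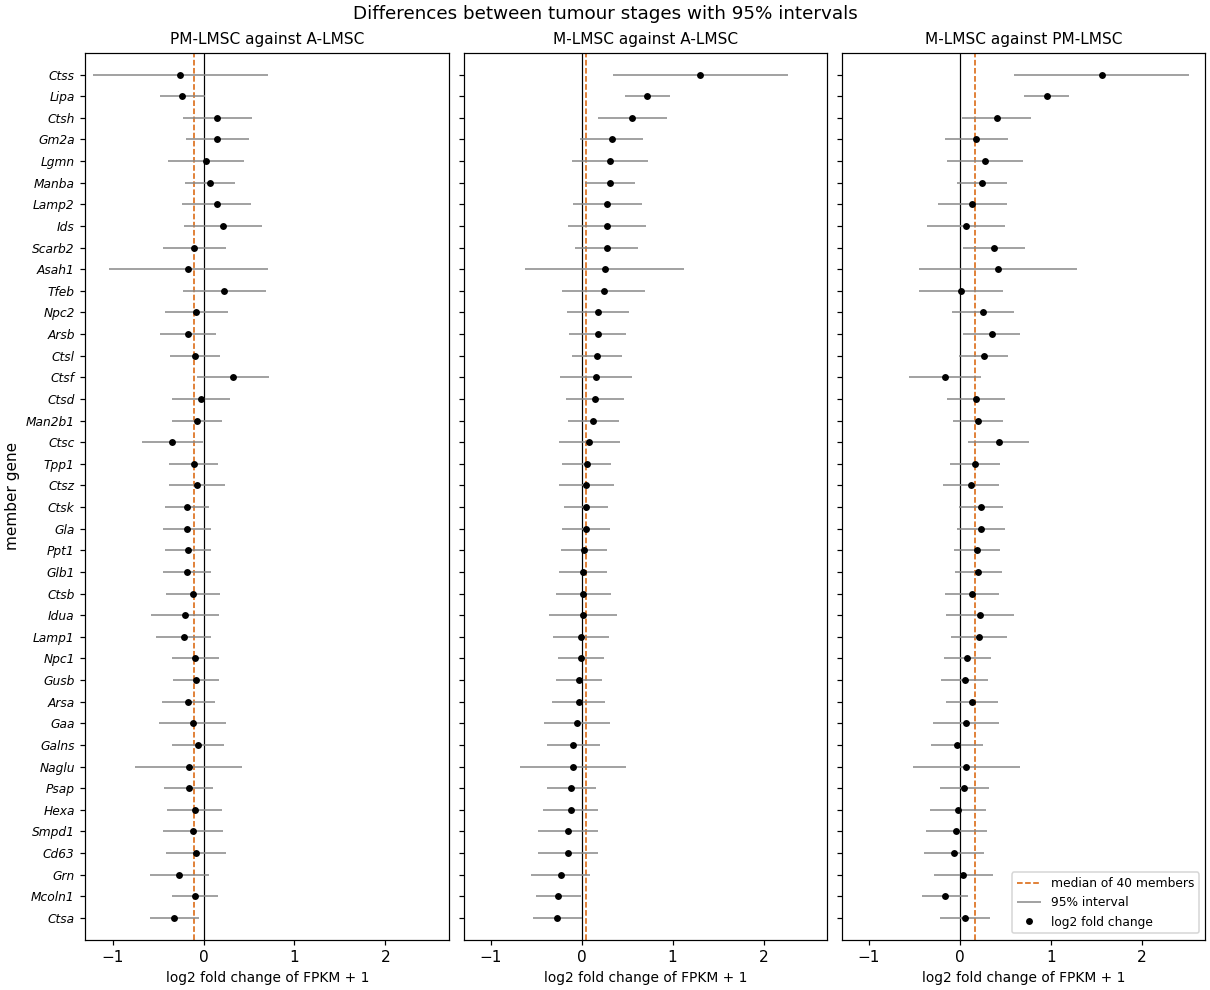
Log2 fold change of FPKM + 1 for each of the 40 lysosomal genes in 3 comparisons of stages, with 95% intervals from limma without the replicate block and a dashed line at the median of the 40. In M-LMSCs against A-LMSCs the points cluster at 0, with Ctss at 1.30 and Lipa at 0.72 to the right.

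The direction of the small differences was uneven. In PM-LMSCs against A-LMSCs the log2 fold change was below 0 for 32 of the 40 genes (47.5% of all tested genes) with a median of -0.11, against 0.011 over all tested genes. Among the 31 broadly expressed genes it was below 0 for 27, against 51.8% of the 3885 tested genes of at least 10 FPKM. In M-LMSCs against PM-LMSCs it was above 0 for 34 of the 40 (49.4% of all tested genes) with a median of 0.17. These 2 comparisons share the PM-LMSC libraries. Centering each library on its median left 33 below 0 in the first and 33 above 0 in the second. Leaving out 1 library at a time gave 26 to 32 below 0 and 29 to 36 above 0.

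Both PM-LMSC libraries were the lowest of the 6 for 14 of the 40 genes (35%), a pattern seen in 6.05% of all tested genes. These were Ctsb, Ctsc, Ctsk, Ctsl, Gla, Glb1, Idua, Lamp1, Lipa, Man2b1, Npc1, Ppt1, Scarb2 and Tpp1. Both were the highest for none (4.26% of all tested genes). The 40 genes together took 1.71% and 1.76% of the summed FPKM in A-LMSCs, 1.57% and 1.61% in PM-LMSCs, and 1.72% and 1.82% in M-LMSCs, so that the PM-LMSC libraries lay below the other 4. The means were 1.73% ± 0.035, 1.59% ± 0.028 and 1.77% ± 0.065 (SD, n = 2 each).

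In M-LMSCs against A-LMSCs 26 of the 40 had a log2 fold change above 0 (54.7% of all tested genes), with a median of 0.049. When each library was centered on its median, 20 were above 0 and the median was -0.00018, so that no direction can be given for the list in this comparison. Over both later stages 17 of the 40 were above 0 (53.4% of all tested genes). Both M-LMSC libraries were above the other 4 for 7 genes (17.5%, against 11.8% of all tested genes), namely Arsb, Ctsh, Ctsl, Ctss, Lipa, Manba and Scarb2. Only Mcoln1 had both below the other 4 (2.5%, against 11.6%). All 4 later-stage libraries were above both A-LMSC libraries for Ctsh, Gm2a, Ids and Tfeb, and below them for Ctsa, Grn, Mcoln1 and Psap, 10% of the list in each direction, against 10.7% of all tested genes in each.

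**Figure D3:**
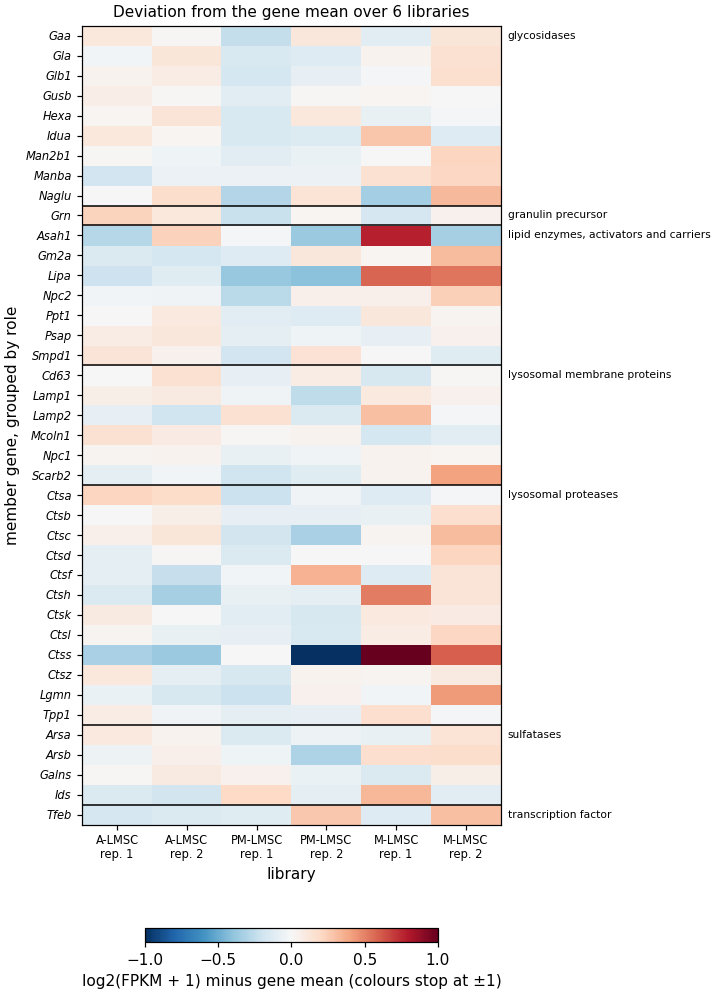
Deviation of log2(FPKM + 1) from the mean of each gene over the 6 libraries, with the 40 genes in rows grouped by role and the libraries in columns, in a color scale that stops at ±1. Ctss and Lipa are the rows with both M-LMSC columns in strong red, and the PM-LMSC columns are pale blue for most genes.

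Among the proteases, cathepsin S showed the largest stage difference. Ctss, which trims the invariant chain during antigen presentation and stays active outside the lysosome, measured 4.0 and 3.85 FPKM in A-LMSCs, 5.27 and 1.72 in PM-LMSCs, and 14.6 and 8.49 in M-LMSCs. Both M-LMSC libraries were above the other 4, whereas the 2 PM-LMSC libraries lay on opposite sides of the A-LMSC pair. The mean in M-LMSCs was 2.94 times that in A-LMSCs. The log2 fold change was 1.30 (SE 0.40), with a limma adjusted p of 0.229 without the block and 0.0394 with it. Against PM-LMSCs it was 1.56 (SE 0.40), with a limma adjusted p of 0.353 and, with the block, 0.0615. With 1 library left out at a time, these 2 values ranged from 0.95 (without M-LMSC library 1) to 1.66 (without M-LMSC library 2) and from 0.96 (without PM-LMSC library 2) to 2.16 (without PM-LMSC library 1), and none of these fits gave a pass.

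Cathepsin H, an aminopeptidase of low level here, had 1.38 and 1.09 FPKM in A-LMSCs, 1.49 and 1.47 in PM-LMSCs, and 2.75 and 1.87 in M-LMSCs. Ctsh was thus highest in M-LMSCs and lowest in A-LMSCs with no overlap between stages. The log2 fold change of the M-LMSC level against A-LMSCs was 0.56 (SE 0.16) and did not pass (limma adjusted p = 0.202, and 0.0594 with the block). A value near 1 FPKM is close to the lower limit of what was tested, and log2(FPKM + 1) understates its fold change.

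Of the abundant cathepsins, Ctsd measured 468 and 502 FPKM in A-LMSCs, 449.9 and 499.9 in PM-LMSCs, and 496 and 579 in M-LMSCs, and its stages overlapped. Over both later stages its log2 fold change was 0.057 (95% interval -0.22 to 0.33). Ctsl, a cysteine protease, measured 329 and 308 FPKM in A-LMSCs, 305 and 291 in PM-LMSCs, and 342 and 374 in M-LMSCs, and its 3 stages did not overlap. The PM-LMSC pair was lowest and the M-LMSC pair highest, an arrangement seen in 1.78% of all tested genes. Against A-LMSCs the log2 fold changes were -0.093 (PM-LMSCs) and 0.17 (M-LMSCs), values of opposite sign that average to 0.037 over both later stages (95% interval -0.20 to 0.27). In M-LMSCs against PM-LMSCs it was 0.26 (95% interval -0.013 to 0.53) and did not pass (limma adjusted p = 0.577, and 0.31 with the block).

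Cathepsin K, the collagen-degrading protease best known from osteoclasts, was 11.6 times as abundant as its neighbor Ctss by mean FPKM. Ctsk measured 78.3 and 73.2 FPKM in A-LMSCs, 67.5 and 65.6 in PM-LMSCs, and 78.5 and 77.9 in M-LMSCs. The PM-LMSC pair was lowest, and the A-LMSC and M-LMSC pairs overlapped. The log2 fold change over both later stages was -0.069 (95% interval -0.28 to 0.14), and its M-LMSC pair did not stand above the A-LMSC pair as that of Ctss did.

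Ctsc, which activates the serine proteases of granules in immune cells, measured 6.89 and 7.28 FPKM in A-LMSCs, 5.69 and 5.07 in PM-LMSCs, and 6.74 and 8.48 in M-LMSCs. It had the most negative value of the 40 in PM-LMSCs against A-LMSCs (log2 fold change -0.34, SE 0.14, limma adjusted p = 0.748), and 1 of the 3 most positive in M-LMSCs against PM-LMSCs (0.43, SE 0.14, limma adjusted p = 0.443). Neither passed the test.

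Ctsa, the protective protein that stabilizes β-galactosidase and neuraminidase, measured 74.4 and 72.7 FPKM in A-LMSCs, 55.0 and 62.6 in PM-LMSCs, and 58.4 and 63.5 in M-LMSCs. The 4 later libraries lay below both A-LMSC libraries and overlapped each other. Its log2 fold changes were -0.32 in PM-LMSCs and -0.27 in M-LMSCs against A-LMSCs (SE 0.11 in both), with limma adjusted p of 0.653 and 0.346. Ctsf moved the other way, with 14.5 and 13.0 FPKM in A-LMSCs, 15.1 and 20.0 in PM-LMSCs, and 14.1 and 17.0 at the metastatic stage, and its difference in PM-LMSCs against A-LMSCs (0.32, SE 0.17, limma adjusted p = 0.835) rested mostly on PM-LMSC library 2. Without that library it was 0.13.

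The remaining proteases were Ctsb (345 to 411 FPKM over the 6 libraries), Ctsz (165 to 199), the tripeptidyl peptidase gene Tpp1 (57.6 to 69.4) and the asparaginyl endopeptidase gene Lgmn (51.6 to 80.7). None passed in any comparison.

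**Figure D4:**
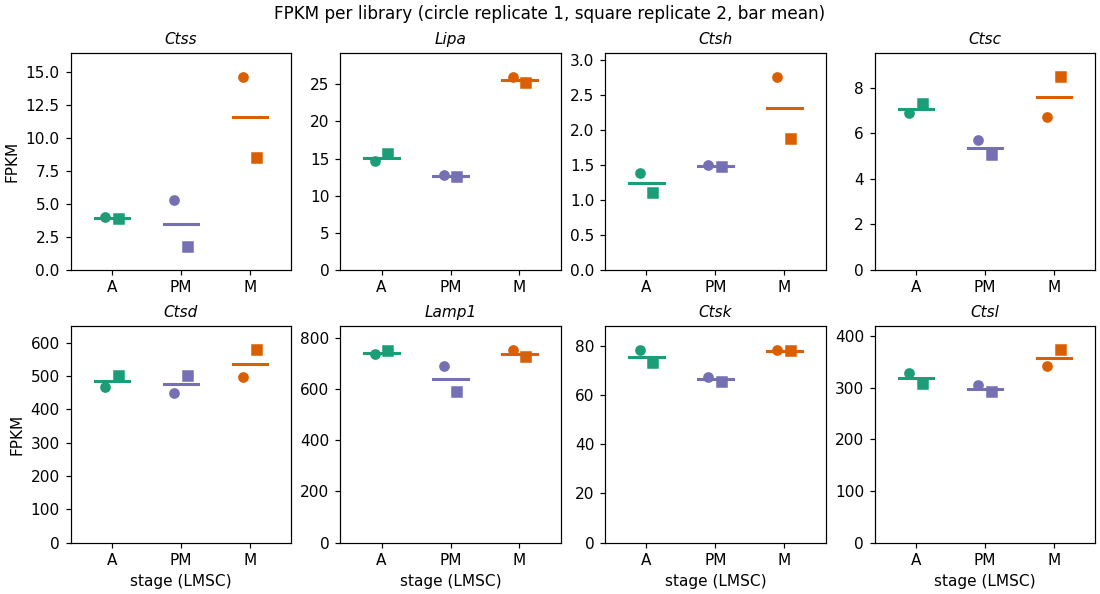
FPKM in each library for 8 lysosomal genes, with stages on the horizontal axis, a circle for replicate 1, a square for replicate 2, a bar at the mean, and axes from 0. Ctss, Lipa, Ctsh and Ctsl are highest in both M-LMSC libraries, and Ctsd, Lamp1, Ctsk and Ctsl stay within 1.29-fold from the lowest to the highest library.

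Among the lipid genes, Lipa was the clearest. It encodes lysosomal acid lipase, which hydrolyzes the cholesteryl esters and triglycerides of endocytosed lipoproteins. Lipa measured 14.6 and 15.6 FPKM in A-LMSCs, 12.8 and 12.6 in PM-LMSCs, and 26.0 and 25.1 in M-LMSCs. The 2 libraries of a stage lay close together at every stage, and the stages did not overlap. In M-LMSCs against A-LMSCs the log2 fold change was 0.72 (SE 0.10), with a limma adjusted p of 0.084 without the block and 0.0208 with it. Against PM-LMSCs it was 0.96 (SE 0.10), with a limma adjusted p of 0.0857 and, with the block, 0.0317. Leaving out 1 library at a time kept the first between 0.68 and 0.76 and the second between 0.93 and 0.98, without a pass.

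Psap encodes prosaposin, the precursor of the activators that present sphingolipids to their hydrolases. Its FPKM was 392 and 402 in A-LMSCs, 348 and 362 in PM-LMSCs, and 351 and 383 in M-LMSCs. All 4 later libraries lay below the A-LMSC pair. The log2 fold change over both later stages was -0.14 (SE 0.10, limma adjusted p = 0.605).

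Gm2a, which lifts the ganglioside GM2 out of the membrane for hexosaminidase, was lowest in A-LMSCs (18.8 and 18.4 FPKM) and higher in PM-LMSCs (18.97 and 22.6) and M-LMSCs (21.2 and 26.3). The sterol carrier gene Npc2 had 168.6 and 167.5 FPKM in A-LMSCs, 142.1 and 178.1 in PM-LMSCs, and 177.7 and 203 in M-LMSCs, the M-LMSC pair lying above the A-LMSC pair. The acid sphingomyelinase gene Smpd1 had 53.2 and 50.1 FPKM in A-LMSCs, 42.4 and 53.6 in PM-LMSCs, and 48.3 and 44.5 in M-LMSCs, the M-LMSC pair lying below the A-LMSC pair. Neither passed the test (limma adjusted p = 0.581 and 0.619 in M-LMSCs against A-LMSCs), and the palmitoyl-protein thioesterase gene Ppt1 (12.7 to 15.2 FPKM) overlapped between these stages. Asah1, singled out after its values were seen, measured 22.2 and 32.1 FPKM in A-LMSCs, 26.9 and 20.9 in PM-LMSCs, and 47.5 and 21.4 in M-LMSCs. The 2 M-LMSC libraries thus held its highest value and 1 of its 3 lowest, and its stage differences had the widest intervals of the broadly expressed genes.

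The membrane proteins included the most abundant genes of the list. Cd63 measured 905 and 1003 FPKM in A-LMSCs, 849.9 and 948 in PM-LMSCs, and 807 and 909 in M-LMSCs. The stages overlapped, and the log2 fold change over both later stages was -0.12 (95% interval -0.40 to 0.16). Lamp1 measured 735 and 749 FPKM in A-LMSCs, 689 and 589 in PM-LMSCs, and 753 and 724 in M-LMSCs. Its PM-LMSC pair was lowest, and over both later stages the log2 fold change was -0.11 (95% interval -0.38 to 0.15).

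Mcoln1 encodes TRPML1, the calcium channel through which lysosomes release calcium. It measured 13.4 and 12.7 FPKM in A-LMSCs, 12.0 and 12.2 in PM-LMSCs, and 10.5 and 11 in M-LMSCs, with no overlap between stages. The difference of the M-LMSC level from A-LMSCs was small and did not pass (log2 fold change -0.26, SE 0.10, limma adjusted p = 0.331). Against PM-LMSCs it was -0.16, among the 3 most negative, along with Ctsf at -0.16 and Cd63 at -0.067. Scarb2, the receptor that carries β-glucocerebrosidase to the lysosome, measured 22.0 and 23.1 FPKM in A-LMSCs, 20.4 and 21.6 in PM-LMSCs, and 24.1 and 31.4 in M-LMSCs, while Lamp2 ranged from 22.3 to 32.0.

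The glycosidases and sulfatases, which strip sugars and sulfates from glycolipids and glycosaminoglycans, gave no call. Among the 9 glycosidases the log2 fold change in PM-LMSCs against A-LMSCs was below 0 for 8, from -0.21 to 0.069. In M-LMSCs against A-LMSCs 5 were above 0 and 4 below, from -0.12 to 0.31. The most abundant was the hexosaminidase gene Hexa (145 to 177 FPKM), then the acid α-glucosidase gene Gaa (59.2 to 76.1) and the β-galactosidase gene Glb1 (33.8 to 42.7). Gla, Gusb, Man2b1 and Naglu had means between 13.1 and 21.4 FPKM.

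Among the low ones, the β-mannosidase gene Manba was higher in both M-LMSC libraries (2.80 and 2.95 FPKM) than in the other 4 (1.98 to 2.28), while Idua ranged from 1.19 to 1.94. Of the sulfatases, Arsb was higher in both M-LMSC libraries (10.7 and 10.8) than in the others (7.43 to 9.83). Ids, the iduronate sulfatase gene, measured 8.14 and 7.88 FPKM in A-LMSCs, 10.6 and 8.42 in PM-LMSCs, and 11.7 and 8.40 in M-LMSCs. For PM-LMSCs against A-LMSCs its log2 fold change was 0.21 (SE 0.18, limma adjusted p = 0.877). Arsa and Galns stayed between 10.6 and 13.2 FPKM.

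Grn, the granulin precursor that is secreted and also delivered to lysosomes, measured 106 and 97.4 FPKM in A-LMSCs, 77.3 and 91.6 in PM-LMSCs, and 80.2 and 92.8 in M-LMSCs. The 4 later libraries were below both A-LMSC libraries, and the log2 fold change over both later stages was -0.25 (SE 0.12, limma adjusted p = 0.489). Tfeb itself was near the lower limit of what was tested, with 1.10 and 1.15 FPKM in A-LMSCs, 1.17 and 1.85 in PM-LMSCs, and 1.16 and 1.92 in M-LMSCs. Library 1 of each later stage was close to the A-LMSC pair and library 2 was higher. The log2 fold change over both later stages was 0.23 (SE 0.17, limma adjusted p = 0.607).

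The genes whose promoters held the core were set beside those whose promoters did not. In M-LMSCs against A-LMSCs the median log2 fold change was 0.0057 over the 12 genes with it and 0.083 over the 23 without it. In PM-LMSCs against A-LMSCs the medians were -0.14 and -0.10. The genes with the core had a median level of 49.5 FPKM and those without it 21.0 FPKM. All 12 with the core were at least at 11.9 FPKM, and the group without it ranged from 1.39 to 904 FPKM.

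Other genes of the pathway were counted from lists that do not overlap with the 40, apart from Tfeb, which is also in the list of its family. No gene of these lists passed without the block in any comparison. Of the 16 V-ATPase subunits, which acidify the lysosome, 13 were above 0 in PM-LMSCs against A-LMSCs (52.5% of all tested genes) with a median of 0.13, and 11 in M-LMSCs against A-LMSCs with a median of 0.14. Atp6v1b2 was the largest over both later stages, with 34.6 and 37.7 FPKM in A-LMSCs, 44.4 and 41.3 in PM-LMSCs, and 43.9 and 50.8 in M-LMSCs (log2 fold change 0.31, limma adjusted p = 0.352). The pump subunits therefore lay on the other side of 0 from the 40 genes in PM-LMSCs, a difference that was not tested.

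Of 16 further hydrolases tested, 9 were below 0 in PM-LMSCs against A-LMSCs (47.5% of all tested genes), with a median of -0.030. In M-LMSCs against A-LMSCs 11 of the 16 were above 0 with a median of 0.056. Of the 12 genes of mannose-6-phosphate tagging and sorting, 6 were below 0 in PM-LMSCs against A-LMSCs, with a median of 0.0025. In M-LMSCs against A-LMSCs 5 of the 12 were above 0, with a median of -0.024. Of the MiT/TFE factors only Tfeb and Tfe3 were tested, and Tfe3 measured 4.77 and 4.77 FPKM in A-LMSCs, 3.56 and 4.62 in PM-LMSCs, and 3.94 and 4.53 in M-LMSCs. Of the cystatins, which inhibit cysteine cathepsins, Cst3 (183 to 222 FPKM) and Cstb (372 to 427 FPKM) were tested. Over both later stages their log2 fold changes were -0.12 and 0.061, and neither passed.

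Of 15 further membrane and transport genes tested, 9 were below 0 in PM-LMSCs against A-LMSCs, with a median of -0.011. In M-LMSCs against A-LMSCs 9 of the 15 were above 0. One of them, Cd68, the glycoprotein used as a macrophage marker, measured 5.85 and 6.44 FPKM in A-LMSCs, 6.84 and 5.48 in PM-LMSCs, and 9.83 and 12.2 in M-LMSCs. Against A-LMSCs, the M-LMSC level differed by a log2 fold change of 0.74 (SE 0.15), with a limma adjusted p of 0.118 without the block and 0.0456 with it. It was the only gene of these other lists to pass with the block in that comparison.

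Ctss was set beside macrophage markers, since macrophages make cathepsin S. The list held 19 markers, of which 10 reached a mean of 1 FPKM. Both M-LMSC libraries were the highest for 16 of the 19, against 11.8% of all tested genes. Their summed FPKM was 143 and 141.3 in A-LMSCs, 184 and 80.1 in PM-LMSCs, and 458 and 339 in M-LMSCs. Most of it was Lyz2, the lysozyme gene of myeloid cells (115 and 106, 147 and 60.6, 362 and 249.7 FPKM in the same order). Without Lyz2 the sum was 27.9 and 35.1, 37.7 and 19.5, and 95.8 and 89.5 FPKM. The sum was thus highest in both M-LMSC libraries with Lyz2 and without it, and lowest in PM-LMSC library 2.

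The defining markers were at low levels: Ptprc, which encodes CD45, the antigen of the depletion, stayed between 0.025 and 0.099 FPKM and Adgre1, which encodes F4/80, between 0.23 and 2.09 FPKM. Cx3cr1 and Cd52 were at 0 in PM-LMSC library 2 only, and no other marker was at 0. None of the 10 tested markers passed without the block, and all 10 had an unadjusted p under 0.05 in M-LMSCs against A-LMSCs, with a median log2 fold change of 1.47. With the block 8 of the 10 passed there, all higher, where 2.28% of all tested genes were called higher. In bulk RNA, more cells of a type and more RNA per cell cannot be told apart.

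Across the 6 libraries Ctss had the order of the marker sum with Lyz2, from M-LMSC library 1 down through M-LMSC library 2, PM-LMSC library 1 and the 2 A-LMSC libraries to PM-LMSC library 2. This exact order was found in 0.72% of all tested genes, and Ctss was the only one of the 40 that had it. Without Lyz2 the sum was higher in A-LMSC library 2 than in library 1, the reverse of Ctss, and the other libraries kept their places. Relative to the sum of markers without Lyz2, the FPKM of Ctss was 14.4% and 10.9% in A-LMSCs, 14.0% and 8.79% in PM-LMSCs, and 15.2% and 9.48% in M-LMSCs. That ratio varied by 1.73-fold over the libraries, while Ctss itself varied by 8.51-fold. The part of macrophages in the level of Ctss was not tested.

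Other genes were set beside the markers in the same way. Lipa was also high in both M-LMSC libraries. Its PM-LMSC libraries held 12.8 and 12.6 FPKM, where the markers without Lyz2 summed to 37.7 and 19.5 FPKM. Its ratio to that sum varied by 2.37-fold against 2.07-fold for Lipa itself. The part of macrophages in the level of Lipa was not tested. Ctsh had a ratio that varied by 3.59-fold. For Ctsd, Ctsb and Ctsk the ratio varied by 4.94-fold, 4.87-fold and 4.10-fold, while the genes themselves varied by 1.29-fold, 1.19-fold and 1.20-fold. The sum itself varied by 4.90-fold, so the ratio of any steady gene must vary by about as much. Such a ratio restates that the gene is steady and cannot tell which cells made its RNA. The geometric mean of the 31 broadly expressed genes was 58.1 and 58.4 FPKM in A-LMSCs, 52.4 and 56.1 in PM-LMSCs, and 58.5 and 62.4 in M-LMSCs. Set against that mean, Ctss was at 6.89% and 6.59%, 10.1% and 3.06%, and 24.97% and 13.6% in the same order.

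**Figure D5:**
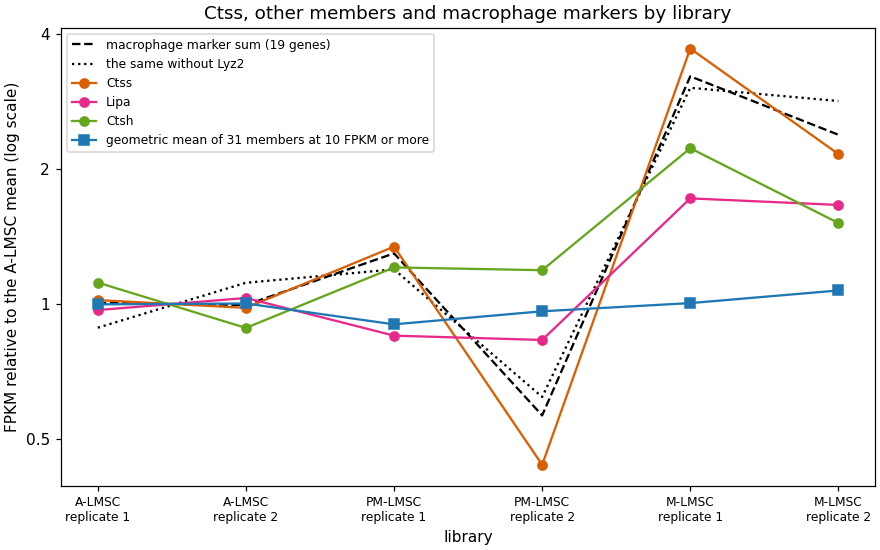
FPKM in each library relative to the mean of the A-LMSC libraries, on a log axis, for Ctss, Lipa, Ctsh, the geometric mean of the 31 broadly expressed lysosomal genes, and the summed macrophage markers with and without Lyz2. Ctss and the marker sum share their high in M-LMSC library 1 and their low in PM-LMSC library 2, and the line of the broadly expressed genes stays within 1.19-fold from the lowest to the highest library.

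The libraries also differed in markers of other cells. Of 12 mesothelial markers, all tested, 11 were above 0 in M-LMSCs against A-LMSCs with a median log2 fold change of 1.13, and their summed FPKM was 131 and 191 in A-LMSCs, 319 and 449 in PM-LMSCs, and 219 and 536 in M-LMSCs. The epithelial keratin gene Krt19 of that list fell (log2 fold change -1.53, limma adjusted p = 0.0395). With the block 8 of the 12 passed as higher in that comparison. No epithelial marker of 12 reached a mean of 1 FPKM, though both M-LMSC libraries were the highest for 7 of them (11.8% of all tested genes). The summed FPKM of the 12 was 0.472 and 1.58 in A-LMSCs, 1.02 and 0.928 in PM-LMSCs, and 2.81 and 4.42 in M-LMSCs. Of 8 endothelial markers 1 was tested, Kdr, and it passed as higher with the block alone. The 13 stromal markers, among them the collagen genes, were all tested and none passed. The part of mesothelial or epithelial cells in the lysosomal genes was not tested.

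Some of the values rest on shared sequence. Cd63 has a processed pseudogene, Cd63-ps, with 98.0% identity over 858 bases, and Mcoln1 shares 400 bases at 95% identity with A230057D06Rik. Exons of Ctsd, Ctsl and Glb1 overlap another gene on the same strand, and those of 12 genes overlap one on the other strand. How reads were divided in those places is not given in the sources used here, and these levels are uncertain to that extent.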

How the data were processed

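LMSC libraries of 3 stages, with 2 libraries each, were analyzed. The study used 3 mice per stage, and the third is not analysed here. The authors deposited FPKM values for 34745 genes, 1 column per library. The submitters' processing notes name TopHat2 2.0.9 and mm10, and the counting tool and annotation are not given in the sources used here. FPKM divides fragments by gene length and library total, so counts and their depth are lost. Spacing of low values fitted depths of 14960000 to 21000000 fragments, but the doubled depths fitted about as well (53.4% to 55.7% of low values, against 50.7% to 52.5%), so no counts were recovered. Of 57 repeated names the first identifier was used.

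Genes whose mean reached 1 FPKM (10279) were fitted as log2(FPKM + 1) in R 4.3.3 with limma 3.58.1 (lmFit, eBayes with trend), 1 mean per stage, all 6 libraries sharing 1 estimate of the spread, and Benjamini-Hochberg adjustment at 0.05. Fold changes are on that scale. The script was tested on simulated data. Same-numbered libraries deviated together from their stage means, with correlations over tested genes of 0.238 (A and PM), 0.307 (A and M) and 0.491 (PM and M). The numbers were therefore treated as pairing, and a fit with the number as a block is given where it changes a call. The labels do not state a pairing, and it was inferred from the same values that the block was then used to test. Over the 40 genes alone the correlations were -0.147, -0.17 and 0.69. Alternatives were a pseudocount of 0.1, no filter, quantile normalization, median centering, only the stages compared, the block, and each library left out. Gene coordinates come from GENCODE M21 (GRCm38, the build mm10), which held 34267 of the identifiers, and promoters from RefSeq. Near-identical copies were searched with blastn 2.17.0.

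The 40 genes and all other lists were chosen with earlier results of these data known. Genes with values in every library passed in a comparison with or without the block, had 1 of the 3 largest rises or falls in a pair of stages, were among the 3 most abundant, or were Ctss, Ctsk, Ctsd, Ctsl, Lamp1, Psap, Grn or Tfeb. Others with such values (Npc1, Npc2, Gm2a, Smpd1, Asah1, Scarb2 and the comparison genes) were chosen after their values were seen.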

Additional observations from a re-analysis of the deposited data

Results flagged for a closer look

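For 3 genes the effect of the 2 later stages against A-LMSCs differed in direction, both PM-LMSC libraries lying below and both M-LMSC libraries above the A-LMSC pair. The same arrangement was found in 183 of all tested genes (1.78%), and the opposite one in 113 of them and in 0 of the 40. For Lipa the difference between M-LMSCs and PM-LMSCs passed with the replicate block (log2 fold change 0.96, limma adjusted p = 0.0317). For Scarb2 (0.37, limma adjusted p = 0.525) and Ctsl (0.26, limma adjusted p = 0.577) it did not pass without the block, nor with it. Groups of 2 libraries are too small for a search for outlying libraries.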

How the results depend on the processing

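The number of genes called among all tested genes moved with the fit. For PM-LMSCs against A-LMSCs it was 4, and 1 with no filter, 21 with only the stages compared, and 1 to 28 with 1 library left out. For M-LMSCs against A-LMSCs it was 7, and 3 with no filter, 1 with only the stages compared, and 1 to 90 with 1 library left out. For M-LMSCs against PM-LMSCs it was 3, and 2 to 25 with 1 library left out. For both later stages against A-LMSCs it was 13, and 0 with no filter, 7 with median centering, and 0 to 93 with 1 library left out.

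With the replicate block these counts were 30, 403, 43 and 211, and the number of lysosomal genes called went from 0 to 2 in M-LMSCs against A-LMSCs and from 0 to 1 in M-LMSCs against PM-LMSCs. It changed no other call among the 40. Under all other alternatives, each library left out included, none of the 40 was called.

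Over the 40, the median in M-LMSCs against PM-LMSCs of the log2 fold changes lay between 0.091 and 0.21 with 1 library left out, lowest without M-LMSC library 2. Without the 10 most abundant genes in the denominator, the summed share of the 40 genes was 1.91%, 1.76% and 1.96% in A-, PM- and M-LMSCs. The fold changes of 27 gene and comparison pairs were recomputed. Those that changed sign were Cd63 in M-LMSCs against PM-LMSCs (0.092 with quantile normalization, -0.15 to 0.019 with 1 library left out), Ctsf in the same comparison (-0.35 to 0.031 with 1 library left out), Ctsl over both later stages (-0.0031 with median centering, -0.012 to 0.086 with 1 library left out) and Lamp1 over both later stages (0.0085 with quantile normalization). The cause was not tested. With 2 libraries a stage, leaving 1 out leaves a single library that is assumed to vary like the others, and a median 95% half-width of 0.31 on the log2 scale limits what could be shown for a typical gene of the list.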
